A study of Mus musculus with 4 samples.

Results

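The variable segments of the T cell receptor were chosen by symbol and by detection: every gene of the alpha (TRA), beta (TRB), gamma (TRG) and delta (TRD) variable families with a value above 0 in at least 1 library. Of 170 such segments listed among 49490 genes, 112 were detected and 58 were at 0 in all 4 libraries. The detected segments comprised 88 of 128 TRA segments, 17 of 35 TRB segments, all 6 TRD segments and the single TRG segment listed. Because detection chose them, being present is not a result. The 3 segments just inside the rule, Trav9n-2, Trbv8 and Trbv18, had 1 read each over the 4 libraries, and the 58 just outside had 0 reads.

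The RNA was polyadenylated RNA of mouse CD8+ T cells of spleens and lymph nodes, sequenced as 2 libraries labelled Irf8 knockout and 2 labelled WT. Per the series' design text, the knockout cells were Irf8-/- and the cells they were set against carried Irf8fl/fl, an allele flanked by recombination sites. All the cells were activated in culture. Irf8 encodes a transcription factor of immune cells, known chiefly from dendritic cells and other myeloid cells. The sources used here give no strain, age, deleter line, time in culture or receptor transgene. No label says that the 2 libraries of a genotype are separate animals, so the p-values rest on a spread that may be technical.

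A T cell receptor chain is assembled in the thymus by joining 1 of many variable (V) segments to a joining segment, with a diversity segment between them in the beta and delta chains. The assembled exon is then spliced to a constant gene. Most CD8+ T cells carry an alpha and a beta chain, and a smaller lineage carries gamma and delta chains. Because each T cell uses few V segments, the segments in the RNA of a population report which receptors its cells carry. In the mouse the delta locus lies inside the alpha locus on chromosome 14, and segments with dv in their symbol can join either chain. The beta locus is on chromosome 6 and the gamma locus on chromosome 13. Many mouse alpha segments exist as near-identical copies from repeated blocks, marked d and n in their symbols.

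Some facts of the libraries touch every value below. Recovered reads came to 59091255 and 59489280 in the libraries labelled knockout and 58899365 and 59724952 in those labelled WT. Irf8 itself went against the label, with normalized counts of 89508 and 90222 in the libraries labelled knockout and 6364 and 6081 in those labelled WT, 14.4-fold higher under the knockout label (limma, adjusted p = 4.32e-08). The libraries are therefore called by their labels, which set every direction given here. Of the 18 markers of conventional CD8+ T cells, 0 rose and 17 fell (summed normalized count 706574 and 716952 in the libraries labelled knockout, 983548 and 979548 in those labelled WT). Over all genes tested by limma, 19.9% rose and 13.4% fell. The 10 markers of plasmacytoid dendritic cells all rose (280590 and 280058 against 17988 and 17902). Siglech, a surface receptor that defines those cells, stood at 84171 and 84408 in the libraries labelled knockout and 210 and 194 in those labelled WT. In bulk RNA, fewer cells of a type and less RNA per cell cannot be told apart. The part of these markers in the changes described below was not tested.

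The sequences that carry the findings are these, read from GENCODE M21 transcripts on GRCm38, the assembly also called mm10. Each is the last 280 bases of the segment's coding part, 5′ to 3′. The first is the segment with most TRA reads, and its 280 bases were identical to those of Trav14d-1. In the next 2, from the same family, capitals mark bases that differ from Trav14n-1 at the same position. Trav14n-2, identical here to Trav14d-2, differed at 9 of 280 bases, and Trav14-3 also at 9, an identity of 96.8% each.
Trav14n-1: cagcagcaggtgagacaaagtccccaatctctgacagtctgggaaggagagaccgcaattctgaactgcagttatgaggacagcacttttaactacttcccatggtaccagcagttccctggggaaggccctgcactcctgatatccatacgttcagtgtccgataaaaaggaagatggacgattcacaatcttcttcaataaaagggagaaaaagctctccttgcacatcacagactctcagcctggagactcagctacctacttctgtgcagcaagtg
Trav14n-2: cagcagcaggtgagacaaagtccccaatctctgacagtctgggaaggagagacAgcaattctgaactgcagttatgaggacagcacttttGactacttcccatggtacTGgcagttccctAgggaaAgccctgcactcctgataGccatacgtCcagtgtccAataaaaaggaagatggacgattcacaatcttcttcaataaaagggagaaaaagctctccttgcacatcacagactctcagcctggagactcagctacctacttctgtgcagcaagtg
Trav14-3: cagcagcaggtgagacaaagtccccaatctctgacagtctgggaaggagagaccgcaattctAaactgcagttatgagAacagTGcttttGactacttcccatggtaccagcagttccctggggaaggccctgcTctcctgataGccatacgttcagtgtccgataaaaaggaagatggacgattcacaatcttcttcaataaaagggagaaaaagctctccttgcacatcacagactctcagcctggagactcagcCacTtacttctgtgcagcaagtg
The next set holds the 3 TRA segments that were lower in the libraries labelled knockout under every setting tried, then the leading segments of the other 3 loci. Of the 3, Trav12-2 passed the filter on low values in the libraries labelled WT alone, which set its direction. In this set, capitals mark the 9 bases that end in the codon TGT of the conserved second cysteine, after which the junction of an assembled receptor begins.
Trav12-2: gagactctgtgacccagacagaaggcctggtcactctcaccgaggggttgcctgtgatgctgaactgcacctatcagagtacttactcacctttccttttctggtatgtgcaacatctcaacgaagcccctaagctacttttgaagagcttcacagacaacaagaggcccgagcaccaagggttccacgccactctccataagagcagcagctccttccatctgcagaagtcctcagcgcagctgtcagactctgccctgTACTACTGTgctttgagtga
Trav15-1-dv6-1: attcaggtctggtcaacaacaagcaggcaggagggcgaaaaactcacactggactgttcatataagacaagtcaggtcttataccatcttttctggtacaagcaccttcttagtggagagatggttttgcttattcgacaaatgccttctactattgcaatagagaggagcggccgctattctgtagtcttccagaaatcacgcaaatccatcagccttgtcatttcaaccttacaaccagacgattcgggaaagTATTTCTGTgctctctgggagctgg
Trav21-dv12: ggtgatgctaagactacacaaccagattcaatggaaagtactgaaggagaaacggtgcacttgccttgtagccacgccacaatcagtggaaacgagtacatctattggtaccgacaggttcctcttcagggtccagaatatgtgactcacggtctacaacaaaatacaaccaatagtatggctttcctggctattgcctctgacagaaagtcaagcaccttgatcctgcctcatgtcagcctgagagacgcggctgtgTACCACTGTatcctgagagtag
Trbv12-1: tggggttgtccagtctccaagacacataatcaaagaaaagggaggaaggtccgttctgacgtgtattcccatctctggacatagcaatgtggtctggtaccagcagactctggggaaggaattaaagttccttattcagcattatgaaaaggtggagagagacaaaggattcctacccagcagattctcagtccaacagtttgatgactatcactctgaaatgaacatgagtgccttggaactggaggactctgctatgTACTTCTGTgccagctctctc
Trdv2-2: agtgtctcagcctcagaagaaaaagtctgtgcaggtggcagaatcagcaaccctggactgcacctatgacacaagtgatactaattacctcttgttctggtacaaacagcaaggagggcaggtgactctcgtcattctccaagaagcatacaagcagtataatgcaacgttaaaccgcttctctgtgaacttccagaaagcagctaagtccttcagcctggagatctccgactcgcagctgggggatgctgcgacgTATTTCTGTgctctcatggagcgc
Trgv2: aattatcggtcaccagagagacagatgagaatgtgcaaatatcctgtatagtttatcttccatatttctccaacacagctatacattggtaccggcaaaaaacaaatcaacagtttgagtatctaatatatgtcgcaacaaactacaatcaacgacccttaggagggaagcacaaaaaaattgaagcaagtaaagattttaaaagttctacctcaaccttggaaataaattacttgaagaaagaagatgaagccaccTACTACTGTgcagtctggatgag
These stretches lie at chr14:53166899-53167178 (Trav14n-1), chr14:53259900-53260179 (Trav14n-2), chr14:53763415-53763694 (Trav14-3), chr14:53616635-53616914 (Trav12-2), chr14:53559968-53560247 (Trav15-1-dv6-1), chr14:53876473-53876752 (Trav21-dv12), chr6:41113788-41114067 (Trbv12-1) and chr14:53961323-53961602 (Trdv2-2), all on the plus strand. The Trgv2 stretch lies at chr13:19336573-19336852 on the minus strand. All lie in coding exons of V segment genes.

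A single alpha family and a single beta segment held nearly all V segment reads in every library. Shares are of counts and are not corrected for length, and the transcripts of the tested segments were 260 to 563 bases long. The 9 segments of the Trav14 family took 97.95% and 98.05% of TRA reads in the libraries labelled knockout, and 95.4% and 95.2% in those labelled WT. Trbv12-1 took 99.72% and 99.72% of TRB reads in the libraries labelled knockout, and 99.74% and 99.71% in those labelled WT. As background, Trav14 encodes the Vα2 chain and Trbv12 the Vβ5 chain, the pairing carried by the OT-I receptor transgenic mouse that is widely used in studies of CD8+ T cells. No label names a receptor transgene, and whether the mice carried one was not tested.

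**Figure D1:**
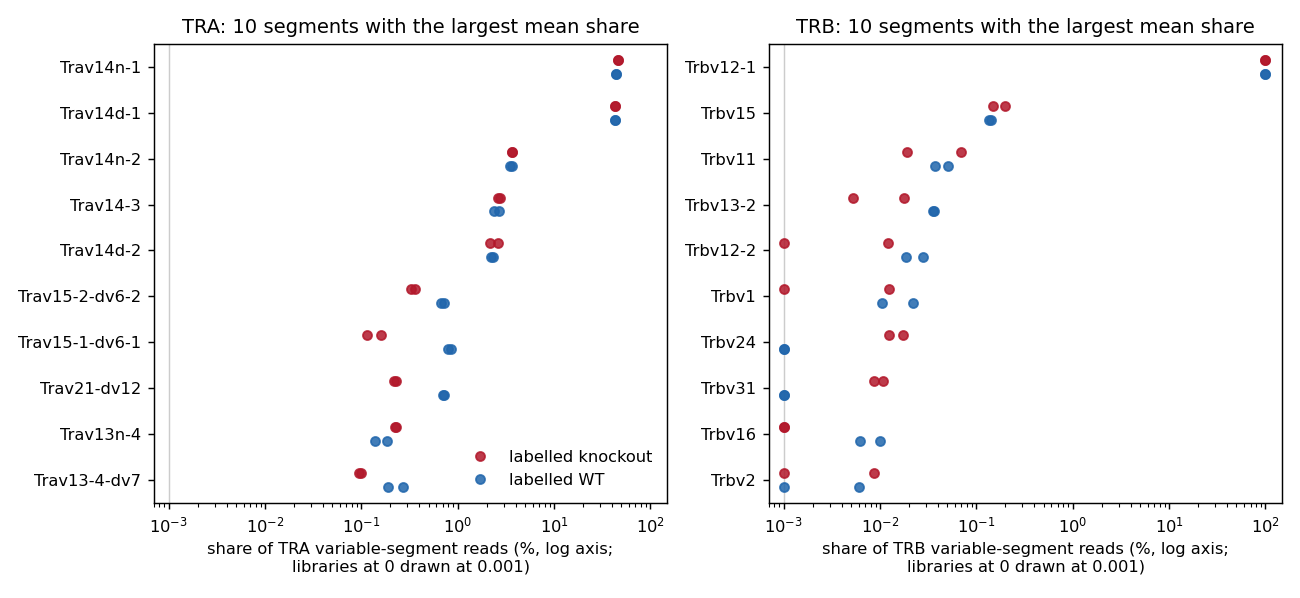
Share of the V segment reads of its locus held by each of the 10 TRA segments (left) and 10 TRB segments (right) with the largest mean share, in percent on a log axis. Points are single libraries, red for those labelled knockout and blue for those labelled WT, and libraries at 0 are drawn at 0.001%. Trav14 copies and Trbv12-1 lead in all 4 libraries, and Trav15-1-dv6-1, Trav15-2-dv6-2 and Trav21-dv12 sit lower in the libraries labelled knockout.

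The 2 identical copies at the top, Trav14d-1 and Trav14n-1, together made up 88.8% and 88.9% of TRA reads in the libraries labelled knockout and 86.9% and 86.5% in those labelled WT. Their separate values depend on how reads of identical sequence were divided in counting, which the sources used here do not describe. Trav14n-1 (chr14:53166626-53167178) had normalized counts of 26659 and 26342 in the libraries labelled knockout and 22739 and 21689 in those labelled WT. Trav14d-1 (chr14:52855614-52856166) had 24653 and 24519 in the libraries labelled knockout and 22484 and 21053 in those labelled WT. For each copy both libraries labelled knockout lay above both labelled WT. Their log2 fold changes were 0.25 ± 0.04 (SE, adjusted p = 0.0024) and 0.18 ± 0.04 (adjusted p = 0.0174) by limma over all 18378 genes tested, n = 2 libraries a group. As shares of TRA reads, neither change passed the test (adjusted p = 0.180 for Trav14n-1 and 0.932 for Trav14d-1).

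The other members of the family were far lower. Trav14n-2 had 2107 and 2081 in the libraries labelled knockout and 1904 and 1716 in those labelled WT, and its difference did not pass the test (log2 0.21, adjusted p = 0.0725). Trav14-3, a copy without d or n in its symbol, had 1530 and 1574 in the libraries labelled knockout and 1237 and 1320 in those labelled WT, a rise of 0.28 ± 0.07 on the log2 scale (adjusted p = 0.0298). Trav14d-2 had 1531 and 1249 against 1199 and 1102 (log2 0.27, adjusted p = 0.127). The remaining 4, Trav14-1, Trav14-2, Trav14n-3 and Trav14d-3-dv8, had values of 13.7 to 177 in the libraries labelled knockout and 24.4 to 50.9 in those labelled WT, and none passed the test. The value of 177 belonged to Trav14d-3-dv8 in knockout-labelled replicate 2, whose partner library had 41.2. Summed over its 9 members, the family stood at 56632 and 56101 in the libraries labelled knockout and 49694 and 47033 in those labelled WT. The group means were 56367 ± 375 and 48363 ± 1882 (SD, n = 2 each), a ratio of 1.17.

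Trbv12-1 (chr6:41113550-41114067), known under an older symbol as Tcrb-V5.2, had normalized counts of 55135 and 55690 in the libraries labelled knockout and 48807 and 50481 in those labelled WT. It rose by 0.16 ± 0.03 on the log2 scale (limma, adjusted p = 0.00768), with no overlap between the groups. Its share of TRB reads did not pass the test (adjusted p = 0.999). The 95% Wilson intervals of that share spanned 99.68 to 99.76% and 99.67 to 99.76% in the libraries labelled knockout, and 99.69 to 99.79% and 99.65 to 99.75% in those labelled WT. Such intervals cover counting error only, since copies made by polymerase are not separate molecules.

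The rises of Trav14n-1, Trav14d-1, Trav14-3 and Trbv12-1 depended on the scaling: with each library centred on its median gene, all 4 turned below 0, to between -0.14 and -0.02 on the log2 scale. Trbv12-1 was then called lower (log2 -0.14, limma, adjusted p = 0.0093). That centring moved the median of all tested genes from a log2 fold change of 0.018 to -0.28. The 6 segments that rose under the deposited scaling lost their calls when either library labelled knockout was left out. Calls of higher over all genes became fewer as well, so the loss was not particular to these segments. Without knockout-labelled replicate 1 another segment, Trav14d-3-dv8, was called higher.

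The other 16 TRB segments together held 153 and 159 normalized counts in the libraries labelled knockout and 125 and 149 in those labelled WT, the groups lying apart by less than the gap within those labelled WT. Trbv15, the next most abundant, had 82.3 and 111 in the libraries labelled knockout and 69.2 and 68.4 in those labelled WT, a difference that did not pass the test (log2 0.47, adjusted p = 0.215). Trbv11, annotated as a pseudogene, lies next to Trbv12-1 and had 38.2 and 10.7 against 18.3 and 25.5, with overlapping groups. Trbv13-2 had 9.80 and 2.92 in the libraries labelled knockout and 17.3 and 18.4 in those labelled WT (log2 -1.53, adjusted p = 0.154). The next 6 by share were too low to be tested. Trbv24, a pseudogene, and Trbv31, which is read in the opposite direction to the rest of the locus, were detected in both libraries labelled knockout and neither labelled WT. Trbv24 had 6.86 and 9.73, and Trbv31 had 5.88 and 4.87. Trbv16 was at 0 in both libraries labelled knockout and at 3.05 and 5.11 in those labelled WT. Trbv1, Trbv2 and Trbv12-2 were at 14.3 or below in every library, each with at least 1 library at 0.

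Outside the Trav14 family, alpha segments were lower in the libraries labelled knockout. These 79 segments summed to 1184 and 1115 in the libraries labelled knockout and 2370 and 2378 in those labelled WT. The group means of 1149 ± 48.9 and 2374 ± 5.66 (SD, n = 2 each) gave a ratio of 0.484, and no library of one group came near the other. Their share of TRA reads was 2.05% and 1.95% in the libraries labelled knockout (95% Wilson intervals 1.94 to 2.16% and 1.84 to 2.06%) and 4.55% and 4.81% in those labelled WT (4.38 to 4.74% and 4.63 to 5.01%). No p is given for sums over chosen segments, and an exact permutation test of 2 libraries against 2 could not go below 0.333.

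**Figure D2:**
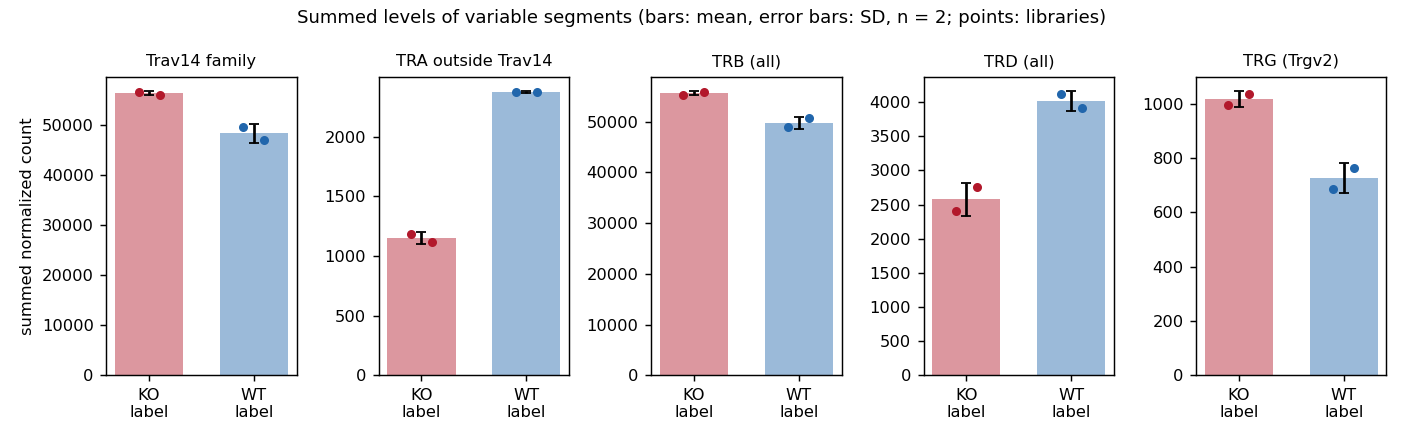
Summed normalized counts of the Trav14 family, the other TRA segments, all TRB segments, all TRD segments and the TRG segment, each on its own linear axis from 0, with the libraries labelled knockout left of those labelled WT. Bars are means, error bars SD (n = 2) and points single libraries. The Trav14 family stands at 56367 and 48363 and the other TRA segments at 1149 and 2374 in the libraries labelled knockout and labelled WT. With median centring the higher bars for Trav14 and TRB turn the other way.

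The 3 alpha segments that fell under every setting in which they were tested were Trav15-1-dv6-1, Trav21-dv12 and Trav12-2. Trav15-1-dv6-1 had 66.6 and 91.5 in the libraries labelled knockout and 446 and 389 in those labelled WT (log2 -2.40 ± 0.21, adjusted p = 3.51e-04). Trav21-dv12, the TRA segment next to Trdv1, had 125 and 129 in the libraries labelled knockout and 365 and 360 in those labelled WT (log2 -1.50 ± 0.15, adjusted p = 5.90e-04). Trav12-2 had 8.82 and 6.81 in the libraries labelled knockout and 115 and 73.5 in those labelled WT (log2 -3.41 ± 0.41, adjusted p = 0.0013). Trav12-2 reached the low-value filter, a normalized count of at least 10, in the libraries labelled WT alone. The filter thus set its direction, in level and in share. The 3 also fell as shares of TRA reads, with log2 fold changes of -2.58, -1.68 and -3.58 (limma, adjusted p = 2.59e-04, 4.00e-04 and 9.24e-04). For each the 2 groups were well separated, and the sequences of all 3 are among those given above.

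Further segments of the Trav15 family fell too. Trav15-2-dv6-2 had 189 and 206 in the libraries labelled knockout and 346 and 356 in those labelled WT (log2 -0.83 ± 0.14, adjusted p = 0.00598). Trav15n-1 had 28.4 and 19.5 against 68.2 and 64.3, and Trav15d-1-dv6d-1 had 31.4 and 21.4 against 71.2 and 65.4. In all, 4 of the 6 Trav15 segments fell and 0 rose, where 13.4% of all genes tested fell and 19.9% rose. The 2 that were not called, Trav15n-2 and Trav15d-2-dv6d-2, are identical copies of each other, with 56.5 to 88.2 in the libraries labelled knockout and 45.8 to 71.2 in those labelled WT.

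Trav13-4-dv7 had 56.8 and 53.5 in the libraries labelled knockout and 141 and 93.9 in those labelled WT (log2 -1.05 ± 0.28, adjusted p = 0.0316). Trav13n-4, of the same family, had 130 and 132 in the libraries labelled knockout and 72.3 and 91.9 in those labelled WT, a difference that did not pass the test (log2 0.68, adjusted p = 0.0631). Trav16, Trav13-1 and Trav12-3 also fell, with 9.73 to 52.9 in the libraries labelled knockout and 27.5 to 108 in those labelled WT. They are singled out after their values were seen, as are the next 2. Trav9-2 had 0 reads in both libraries labelled knockout and 19.3 and 25.5 in those labelled WT. Trav7-5 likewise had 0 reads in both, against 12.2 and 10.2. Trav9-2 and Trav7-5 also reached the filter on low values in the libraries labelled WT alone. Against a floor of 3 reads per library, their means were at least 7.66-fold and 3.83-fold higher in the libraries labelled WT.

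Over the whole set, 43 of the 112 detected segments passed the filter on low values, a normalized count of at least 10 in at least 2 libraries. Of those 43, 6 rose, 15 fell and 22 were not called, with a median log2 fold change of -0.67. Over all 18378 genes tested, 33.4% were called, 19.9% as higher and 13.4% as lower, and the median was 0.018. The 6 that rose were Trav14n-1, Trav14d-1, Trav14-3, Trbv12-1, Trdv1 and Trgv2. Among TRA segments outside the Trav14 family, 24 of 79 were tested, 0 rose and 12 fell. Of the 43, 8 reached the filter in the libraries labelled WT alone and 0 in those labelled knockout alone, so the direction of those 8 was set by the filter. All 8 had log2 fold changes below 0, and 7 of them are TRA segments outside the Trav14 family. The median of -0.67 and the counts of falls above include these segments. Leaving them out, 12 of 35 segments fell. For TRA segments outside the Trav14 family the same step left 17, of which 9 fell. Groups did not overlap for 37 of the 43, against 68.8% of all genes tested. The 37 include the 8 that reached the filter in the libraries labelled WT alone. For those 8 the filter itself kept the groups apart, so the count of 37 is not read as a result. In the authors' deposited table, 5 of the members passed an adjusted p of 0.05 as higher in the libraries labelled knockout and 8 as lower. Of the 21 called here, 11 were also called there with the same direction.

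**Figure D3:**
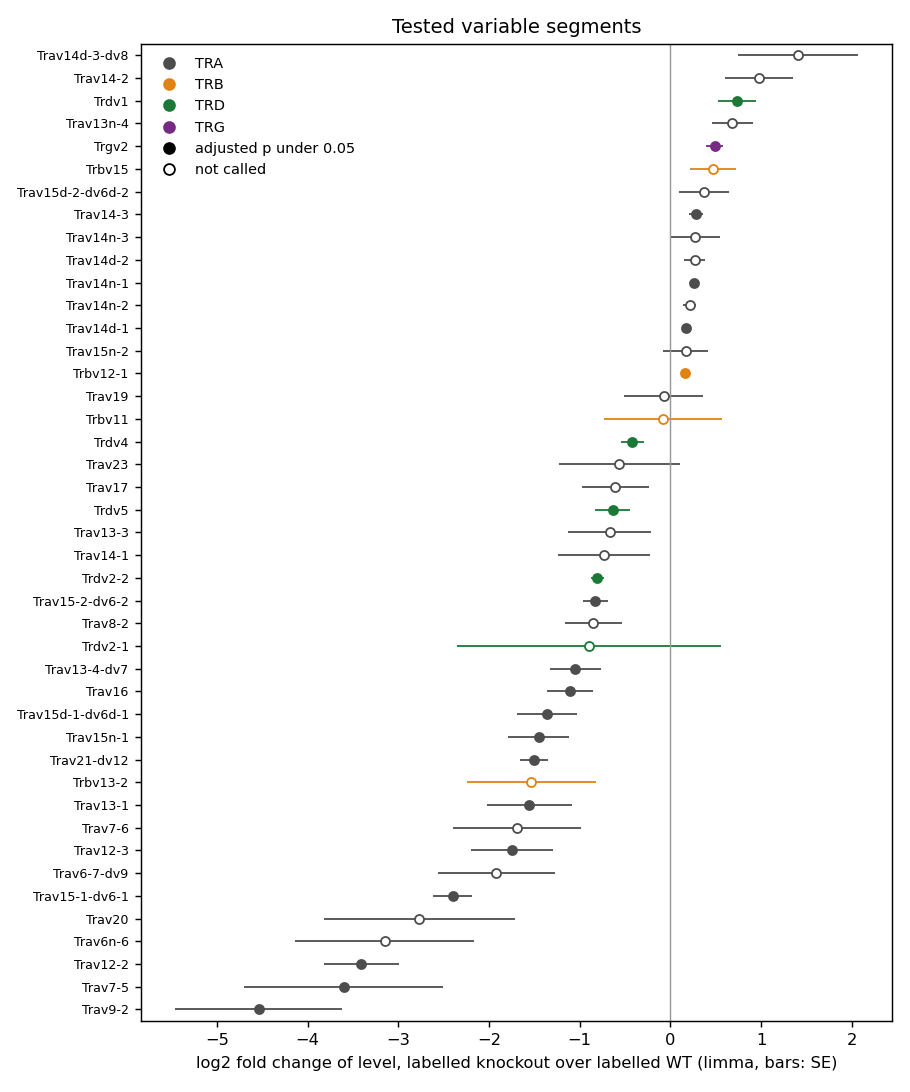
Log2 fold change of level, libraries labelled knockout over libraries labelled WT, for the 43 tested V segments, ordered from highest to lowest. Points are limma estimates on log2(normalized count + 1), bars are SE, colours mark the locus and filled points have an adjusted p under 0.05. The 6 filled points right of 0 include Trbv12-1 and 3 Trav14 segments, which turn below 0 with median centring, and the 15 filled points left of 0 are TRA and TRD segments.

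Leaving out a library labelled knockout thinned out the calls of all genes, with 694 and 630 called lower without replicates 1 and 2 against 2469 with all libraries. Of the 15 that fell, 4 stayed called without knockout-labelled replicate 1 and 4 without replicate 2, while 11 stayed called without WT-labelled replicate 1 and 10 without replicate 2. The 4 segments called lower under every setting in which they were tested were Trav12-2, Trav15-1-dv6-1, Trav21-dv12 and Trdv2-2. Of these, Trav12-2 reached the filter in the libraries labelled WT alone, so its direction was set by the filter.

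Tested as shares of their locus, 0 TRA segments rose and 15 fell. Among the 15, Trav6n-6, Trav7-5, Trav9-2, Trav12-2 and Trav6-7-dv9 reached the filter in the libraries labelled WT alone. The filter set the direction of those segments. Dividing every gene by the TRA sum called 14.5% of all genes higher and 26.6% lower. Of the 4 TRB segments tested, 0 changed in share. Over all genes, dividing by the TRB sum called 15.1% higher and 25.6% lower. When TRA shares were taken over the segments outside the Trav14 family alone, an alternative chosen after the data were seen, 3 of 24 TRA segments were called higher and 4 lower. Under that scaling 82.1% of all genes were called higher and 0.207% lower. The 3 called higher were Trav13n-4, Trav15n-2 and Trav15d-2-dv6d-2, and the 4 called lower were Trav15-1-dv6-1, Trav21-dv12, Trav12-2 and Trav9-2. Of the 4, Trav12-2 and Trav9-2 reached the filter in the libraries labelled WT alone.

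Segments with dv in their symbol, which can join either the alpha or the delta chain, summed to 590 and 754 in the libraries labelled knockout and 1469 and 1387 in those labelled WT. The ratio of means was 0.471. TRA segments outside the Trav14 family and without dv summed to 635 and 537 in the libraries labelled knockout and 928 and 1029 in those labelled WT, a ratio of 0.599. The split runs through an identical pair, Trav15n-2 without dv and Trav15d-2-dv6d-2 with it. Reads of that pair cannot be told apart, so the sums with and without dv are not fully separate. The dv sum includes Trav14d-3-dv8, and without it the other 9 summed to 549 and 577 in the libraries labelled knockout and 1442 and 1349 in those labelled WT, a ratio of 0.403. Of the 10 dv segments, 8 were tested, 0 rose and 5 fell, where 19.9% of all genes tested rose and 13.4% fell.

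Of the 5 delta segments tested, 3 fell and 1, Trdv1, rose, where 13.4% of all genes tested fell and 19.9% rose. All 6 delta segments summed to 2409 and 2751 in the libraries labelled knockout and 4117 and 3916 in those labelled WT, a ratio of means of 0.642. Trdv2-2 (chr14:53960944-53961602), the most abundant, had 1586 and 1677 in the libraries labelled knockout and 2737 and 2973 in those labelled WT, a decrease of 0.81 ± 0.07 on the log2 scale (limma, adjusted p = 3.31e-04). It took 65.8% and 61.0% of TRD reads in the libraries labelled knockout and 66.5% and 75.9% in those labelled WT, and its share did not pass the test (adjusted p = 0.297).

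Trdv4 had 302 and 324 in the libraries labelled knockout and 420 and 417 in those labelled WT (log2 -0.42 ± 0.12, adjusted p = 0.0437). Trdv5, which lies beyond the delta constant gene in the opposite direction, had 166 and 148 against 214 and 279 (log2 -0.64 ± 0.20, adjusted p = 0.0491). Both calls lie close to the threshold and were lost in several alternatives, such as the replicate block (adjusted p = 0.080 for Trdv4 and 0.077 for Trdv5). Trdv1 was the exception, with 307 and 303 in the libraries labelled knockout and 221 and 151 in those labelled WT (log2 0.73 ± 0.21, adjusted p = 0.0397). With median centring it was no longer called (adjusted p = 0.138).

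Trdv1 held 12.7% and 11.0% of TRD reads in the libraries labelled knockout and 5.36% and 3.86% in those labelled WT. It was the 1 TRD segment called in the test of shares, as higher. Dividing by the TRD sum called 66.7% of all genes higher and 0.599% lower, so a call of higher under that scaling says little about Trdv1. Trdv2-1 varied within both groups, with 47.0 and 299 in the libraries labelled knockout and 522 and 95.0 in those labelled WT, and its difference did not pass the test (log2 -0.90 ± 1.46, adjusted p = 0.694). Trdv2-1 and Trdv2-2 both share stretches of sequence with other V segments, at 61.2% and 52.6% of their short sequence windows. Reads of such stretches cannot be assigned with certainty. The level and share of Trdv2-2 given above carry this limit too. Trdv3, a pseudogene, was near 0 and not tested.

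The gamma locus was represented by Trgv2 alone (chr13:19336573-19337167, minus strand). It had normalized counts of 996 and 1038 in the libraries labelled knockout and 688 and 765 in those labelled WT, a rise of 0.49 ± 0.10 on the log2 scale (limma, adjusted p = 0.00977). Other gamma V segments and the gamma constant genes were not analysed here. With median centring the change of Trgv2 kept its direction and was not called (log2 0.19, adjusted p = 0.140). Of the markers of gamma delta T cells, Trdc fell and Blk, a kinase also found in B cells and plasmacytoid dendritic cells, rose. Sox13 and Il17a, genes of the interleukin 17 branch of that lineage, were at 18.5 or below in every library.

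**Figure D4:**
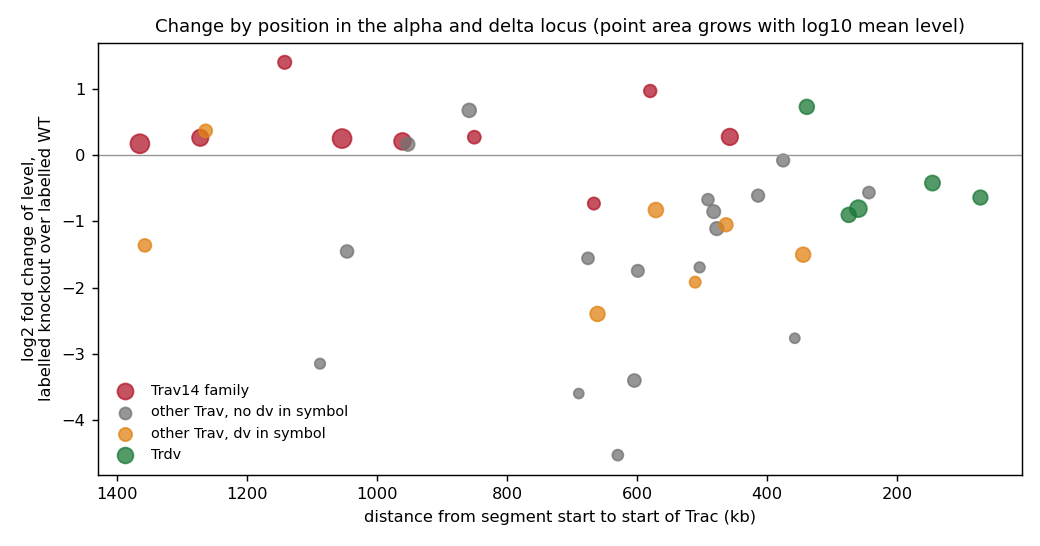
Log2 fold change of level, libraries labelled knockout over libraries labelled WT, against the distance from the start of each segment to the start of Trac, in kb, for the 38 tested segments on chromosome 14. The axis runs from the far end of the locus on the left to Trac on the right, colours mark the Trav14 family, other Trav segments with and without dv in the symbol, and Trdv segments, and point area grows with the log10 mean level. Of the 9 Trav14 points 8 lie above 0 and Trav14-1 below it, and those slightly above 0 turn below it with median centring, while the other Trav points without d or n in the symbol, nearest to Trac, lie below 0. That position was set by the filter for 6 of those 18.

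The 38 tested segments on chromosome 14 lay 71.9 to 1365 kb from Trac. Of the Trav segments outside the Trav14 family, 18 of those tested had no d or n in their symbol and lay nearer to Trac than the tested copies. Of these 18, 6 reached the filter in the libraries labelled WT alone, so their direction was set by the filter. The other 12 all had a log2 fold change below 0, and 7 of the 12 fell, against 13.4% of all genes tested. Of the d and n copies outside that family, 6 were tested and 2 fell, Trav15d-1-dv6d-1 and Trav15n-1. Copies share most of their sequence: 54 of the detected segments had over 50% of their 50-base windows in common with another V segment. Both members of 11 identical pairs were detected, and reads of such pairs cannot be told apart.

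Use of TRA segments was uneven in every library. The effective number of TRA segments, the exponential of the Shannon entropy of their shares, was 3.30 and 3.30 in the libraries labelled knockout and 3.71 and 3.81 in those labelled WT. For TRB it was 1.02 in each library. With copies summed by family, the TRA value was 1.15 and 1.14 in the libraries labelled knockout and 1.31 and 1.33 in those labelled WT. TRD had 2.90 and 3.30 in the libraries labelled knockout and 2.95 and 2.35 in those labelled WT, with overlapping groups.

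The number of TRA segments with at least 1 read was 57 and 55 in the libraries labelled knockout and 61 and 73 in those labelled WT. The range within the group labelled WT was wider than the gap between the groups. For TRB the numbers were 9 and 11 in the libraries labelled knockout and 8 and 9 in those labelled WT.

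The share of reads that would have to move between segments to turn one library's use into another's gives a distance between libraries. For TRA, 3.07 to 3.37% of reads would have to move between a library labelled knockout and one labelled WT. Between the 2 libraries labelled knockout the figure was 0.874%, and between the 2 labelled WT it was 1.24%. Among TRA segments outside the Trav14 family it was 28.5 to 31.4% between groups, 14.3% between the libraries labelled knockout and 11.1% between those labelled WT. For TRB the range between groups, 0.0695 to 0.117%, took in the distance of 0.0897% between the libraries labelled knockout and lay above that of 0.0512% between those labelled WT. For TRD the range between groups of 7.40 to 16.7% likewise took in the distances within them, 8.91 and 11.8%.

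Segments annotated as pseudogenes, which cannot encode a working chain, were read at low levels. Of 34 listed, 11 were detected, and they held 0.139% and 0.112% of TRA reads in the libraries labelled knockout and 0.209% and 0.329% in those labelled WT. In TRB they held 0.0833% and 0.0383% in the libraries labelled knockout and 0.0374% and 0.0504% in those labelled WT, with overlapping groups. Of 4 tested pseudogenes, 0 were called in level, where 33.4% of all genes tested were called. In share 1 was called, Trav8-2, as lower (log2 -1.03, limma, adjusted p = 0.0452). Dividing by the TRA sum called 26.6% of all genes lower.

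The 69 detected segments that were not tested reached at most 19.3 (Trav12-1). They summed to 179 and 136 in the libraries labelled knockout and 177 and 271 in those labelled WT, with overlapping groups. Of these, 19 had reads in libraries labelled knockout alone, 21 in libraries labelled WT alone and 29 in both.

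**Figure D5:**
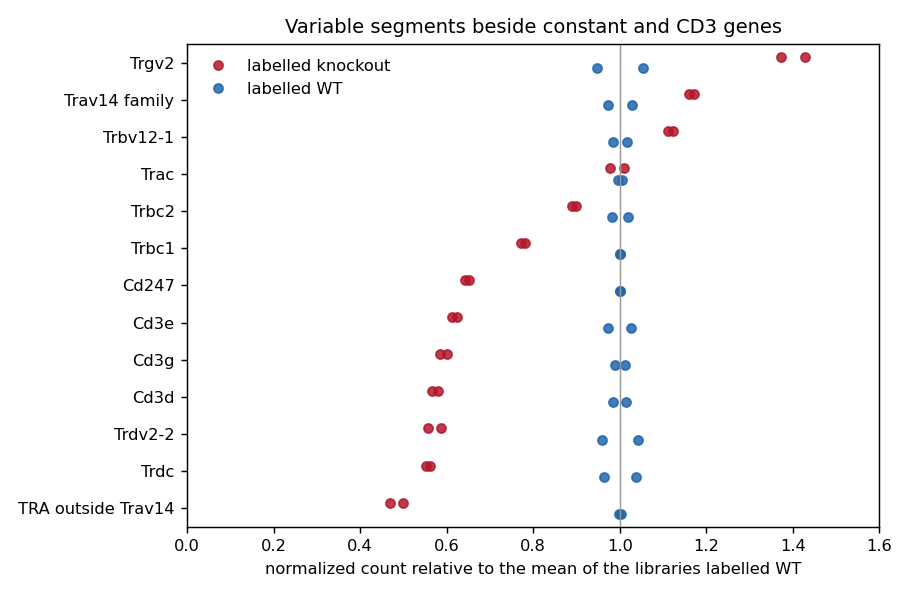
Normalized counts of V segments, constant genes and CD3 genes in each library, divided by the mean of the 2 libraries labelled WT, on a linear axis. Points are single libraries, red for those labelled knockout and blue for those labelled WT, and the line marks 1. In the libraries labelled knockout Trgv2, the Trav14 family and Trbv12-1 lie right of the line, Trac on it, and the other constant genes, the CD3 genes, Trdv2-2 and the TRA segments outside the Trav14 family left of it. Median centring moves the points of the libraries labelled knockout to the left, which puts the Trav14 family, Trbv12-1 and Trac left of the line too.

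Of the constant genes, Trac did not pass the test, and Trbc1, Trbc2 and Trdc fell, Trdc by a ratio near that of the delta V segments (0.558 and 0.642). Trac, the alpha constant gene, had 104596 and 101353 in the libraries labelled knockout and 104094 and 103284 in those labelled WT, a ratio of 0.993 that did not pass the test (limma, adjusted p = 0.800). Trbc1 fell to 36906 and 36431 in the libraries labelled knockout, against 47228 and 47225 in those labelled WT. Trbc2 fell less, to 129794 and 131272, against 143282 and 148784. Trdc, the delta constant gene, stood at 23330 and 22930 in the libraries labelled knockout and 39929 and 43043 in those labelled WT, a ratio of 0.558 (adjusted p = 2.93e-05). Of the 7 genes of the receptor complex, 0 rose and 6 fell, where 19.9% of all genes tested rose and 13.4% fell. The signalling chains Cd3d, Cd3e, Cd3g and Cd247, which carry the signal of the assembled receptor into the cell, had ratios of 0.572, 0.619, 0.593 and 0.648.

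Set against its constant gene, TRA V counts per Trac count were 0.553 and 0.565 in the libraries labelled knockout and 0.500 and 0.478 in those labelled WT. TRB V counts per count of Trbc1 and Trbc2 were 0.332 and 0.333 in the libraries labelled knockout and 0.257 and 0.258 in those labelled WT. These ratios do not change with the scaling of a library. TRD V counts per Trdc count were 0.103 and 0.120 in the libraries labelled knockout and 0.103 and 0.0910 in those labelled WT, with groups that met at 0.103. The counts are not corrected for the lengths of the genes, so the ratios compare libraries and not the amounts of V and constant RNA.

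The list of receptor gene assembly held 14 genes, most of which cut, trim or join V segments in developing lymphocytes. Of 12 tested, 4 rose (Dntt, Dclre1c, Xrcc6 and Ptcra) and 4 fell (Xrcc4, Xrcc5, Polm and Poll), where 33.4% of all genes tested were called. Dntt, the polymerase that adds bases at the junctions, had 8005 and 7844 in the libraries labelled knockout and 138 and 69.4 in those labelled WT. Ptcra, the partner of the beta chain in immature T cells, had 240 and 304 in the libraries labelled knockout and 4.07 and 3.06 in those labelled WT. They were the 2 of 3 tested markers of immature T cells that rose, and 0 fell. Both genes are also known from plasmacytoid dendritic cells, whose markers moved with them. Rag1 and Rag2, the recombinase that makes the cuts, were at 2.92 or below in every library.

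Markers of other T lineages were as follows. Cd4, the coreceptor of helper T cells that dendritic cells also carry, stood at 8243 and 8153 in the libraries labelled knockout and 131 and 127 in those labelled WT. It was the 1 of 4 tested markers of CD4+ T cells that was called. The V segments of invariant natural killer T cells, Trav11 and Trav11d, were at 0 in both libraries labelled knockout and at 0 and 2.04 in those labelled WT. Of 3 tested markers of that lineage, 0 rose and 2 fell, Klrb1c and Slamf1. Of the other lists, 7 of 8 markers of conventional dendritic cells and 3 of 7 tested markers of B cells rose. Among 7 markers of macrophages, 1 rose and 4 fell, and among 6 of natural killer cells, 1 rose and 3 fell. Beside all these lists, 19.9% of all genes tested rose and 13.4% fell.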

How the data were processed

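The 4 libraries were grouped by the genotype and title labels alone. The submitters' processing notes name HISAT2 2.2.1, Trim Galore 0.4.4, DESeq2 and StringTie 2.1.4, with the mm10 build. The sources used here give no settings, annotation or strand, so reads of overlapping or antisense genes could not be told apart. The authors deposited normalized counts per library, a signal that was not whole-numbered, with their mean. The authors' table also holds a log2 fold change (WT over knockout, its sign turned here), its standard error and Wald statistic as a score, and its p-value, raw and adjusted. Dividing each column by its smallest step gave whole reads for 100% of values within 0.01 reads, with size factors of 1.02 and 1.03 for the libraries labelled knockout and 0.983 and 0.979 for those labelled WT. A count of 0 was read as up to 3 reads. No column was left without a sample.

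The main test was limma 3.58.1 in R 4.3.3 (trended, robust variance) on log2(normalized count + 1), which understates changes of low genes. Genes needed 10 or more in at least 2 libraries, with no covariate, and Benjamini-Hochberg adjustment ran over all 18378 genes at 0.05. Shares were tested by the same fit after dividing each library by the sum of its locus. Over all genes, edgeR 4.0.16 on these reads gave 3691 higher and 2652 lower, with 6 and 16 segments among them, and DESeq2 1.42.0 was the other alternative. The fits were tested on simulated data. Further alternatives were other pseudocounts and filters, median centring, a replicate block and leaving out each library.

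Chi-square per degree of freedom between libraries of a group was 6.45 for those labelled knockout and 21.7 for those labelled WT over all genes, so no 2 libraries were counted as 1. Symbols were matched to GENCODE M21, where 170 of 170 segments were found once. Named are the 10 TRA, 10 TRB and 5 TRD segments with the largest shares, Trgv2, the largest called changes of share, every segment that rose, the constant genes and Irf8. The segments, lists and rules were chosen with earlier results of these data known. The result of 1 marker gene is not reported here.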

Additional observations from a re-analysis of the deposited data

How the results depend on the processing

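Depth limits what can be said of segments near 0, 2 libraries a group leave little to estimate spread from, and copies of identical sequence cannot be separated. Of the named segments' values under the alternatives, 480 kept direction and side of the threshold, 53 lost a call, 2 gained one and 24 turned sign. Where a value moved, the cause was not tested, unless fewer libraries or segments entered.

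Replicate numbers did not pair the libraries (correlation of the differences between replicates 0.017 over 18378 genes). With the replicate block 6 segments were higher and 11 lower in level, and 1 higher and 13 lower in share. Against 6 higher and 15 lower in level, median centring gave 0 and 20 (2389 higher and 7210 lower over all genes), no filter gave 9 and 13, pseudocounts of 0.1 and 10 gave 6 and 11 and 6 and 17, a minimum of 50 gave 6 and 11, edgeR gave 6 and 16 and DESeq2 gave 7 and 12. Leaving out 1 library gave 0 to 6 higher and 4 to 13 lower in level, and 3 to 14 lower in share with 1 higher. In share, against 1 higher and 15 lower, no filter gave 5 higher, dv segments counted with TRD gave 3 higher and 11 lower, a minimum of 50 gave 9 lower, copies summed by family gave 8 lower, and TRA outside the Trav14 family gave 4 higher and 4 lower.

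The log2 ratio of locus sums was 0.18 for TRA, 0.24 in RPM, -0.12 with median centring and -1.05 outside the Trav14 family. For TRB it was 0.16, then 0.22 and -0.14. For TRG it was 0.49 and 0.19, and for TRD -0.64 and -0.94, without and with median centring.

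The effective number of TRA segments in the libraries labelled knockout (mean 3.30) was 3.235 with a minimum of 10, 1.146 by family, 2.514 as inverse Simpson index and 19.96 outside the Trav14 family. In those labelled WT (3.76) it was 3.638, 1.322, 2.643 and 19.3 under the same choices. For TRB it was 1.018 with the minimum and 1.006 as inverse Simpson index in both groups, and 1.023 by family in the libraries labelled knockout. For TRD, by family and as inverse Simpson index, it was 2.544 and 2.275 in the libraries labelled knockout and 2.097 and 1.896 in those labelled WT. With the minimum, the mean distance between groups was 2.978% for TRA and 0.04811% for TRB, and outside the Trav14 family it was 29.68%. Per length of transcript, pseudogenes held 0.157% of TRA in the libraries labelled knockout and 0.0657% of TRB in those labelled WT.

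Sign turned for these log2 fold changes. With median centring the level of Trbv12-1 was -0.14, Trav14d-1 -0.12, Trav14n-2 -0.088, Trav14n-1 -0.045, Trav14d-2 -0.034 and Trav14-3 -0.020. Trbv11 was at 0.15 in level by edgeR and by DESeq2 and at 0.0043 in share by edgeR. Trdv5 in share was at -0.000163 with a pseudocount of 10 and -0.0082 by edgeR. Leaving out 1 library gave levels of -2.22 to 0.42 for Trdv2-1 and -0.95 to 0.79 for Trbv11. It gave shares of -1.50 to 0.96 for Trdv2-1, -1.11 to 0.65 for Trbv11, -0.23 to 0.23 for Trdv5, -0.054 to 0.23 for Trav14d-2, -0.0067 to 0.068 for Trav14n-2, -0.0147 to 0.0047 for Trav14d-1 and -0.00035 to 0.00021 for Trbv12-1.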

Other observations

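Joining segments, which lie in the same transcripts as the V segments they were joined to, were listed as separate genes. They were looked at after the V segments' values were known. Traj33 held 83.6% and 84.0% of the reads of the 60 listed alpha joining segments in the libraries labelled knockout, and 71.1% and 71.7% in those labelled WT. Its normalized counts were 5842 and 5822 in the libraries labelled knockout and 4993 and 5036 in those labelled WT. Trbj2-7 held 41.1% and 42.2% of the reads of the 14 listed beta joining segments in the libraries labelled knockout, and 33.9% and 35.4% in those labelled WT. Its normalized counts were 3193 and 3231 in the libraries labelled knockout and 3034 and 3199 in those labelled WT, with overlapping groups.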
